A study of Mus musculus with 16 samples.

Results

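The guanylate-binding proteins, encoded by the Gbp genes, were followed through the immune cells of 2 transplanted mouse tumors with and without radiation. The family was taken as the 9 genes Gbp2, Gbp2b, Gbp3, Gbp4, Gbp5, Gbp6, Gbp7, Gbp8 and Gbp9. With earlier results of these data known, the members were chosen by name and not by their values. They were 9 of the 31053 genes in the expression tables and 9 of the 10 genes there whose symbol begins with Gbp and a number, the tenth being Gbp10. C57BL/6J mice carried subcutaneous MC38 tumors, a colorectal carcinoma line, or Panc02-SIY tumors, a pancreatic carcinoma line that expresses the model antigen SIY. Tumors were left untreated or received a single 12 Gy dose of CT-guided radiation and were taken 24 h later, and live CD45+ cells (leukocytes) were sorted for droplet single-cell RNA sequencing of the 3′ ends of transcripts. The 4 groups were untreated MC38, irradiated MC38, untreated Panc02-SIY and irradiated Panc02-SIY, with 4 libraries each and 16 in all. Each tumor model was 1 transplanted cell line. The genotype was C57BL/6J in all groups, and the labels name no allele or agent beyond the tumor and the radiation. The series' design text gives 4 animals per group and the study's methods give 3, and the labels do not say which animal gave which library, so the p-values below measure the spread between these libraries.

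Guanylate-binding proteins are large GTPases that cells make after exposure to interferons, above all interferon-γ. Interferon-γ, encoded by Ifng and released mainly by T and NK cells, acts through its receptor and, downstream, the transcription factor IRF1, and type I interferons reach many of the same promoters through a complex that binds interferon-stimulated response elements. The proteins gather on pathogen-containing vacuoles, bacteria and damaged membranes, where they work beside the immunity-related GTPases and the autophagy machinery and help to start caspase-driven inflammasomes. Among the members, Gbp2 is an effector at bacterial and vacuolar membranes, Gbp5 promotes assembly of the NLRP3 inflammasome, Gbp7 helps deliver oxidase and autophagy components to vacuoles, and Gbp2b, also called Gbp1, is a close relative of Gbp2. In tumors the genes are widely read as a trace of interferon-γ.

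The 9 genes lie in 2 clusters of the mm10 genome, and all are annotated as protein coding. On the plus strand of chromosome 3 stand Gbp5 (ENSMUSG00000105504, chr3:142493978-142522344), Gbp7 (ENSMUSG00000040253, chr3:142530342-142550149), Gbp3 (ENSMUSG00000028268, chr3:142560026-142573209), Gbp2b (ENSMUSG00000040264, chr3:142594847-142619179) and Gbp2 (ENSMUSG00000028270, chr3:142620602-142638008). On the minus strand of chromosome 5 stand Gbp8 (ENSMUSG00000034438, chr5:105014150-105139540), Gbp9 (ENSMUSG00000029298, chr5:105077630-105139539), Gbp4 (ENSMUSG00000079363, chr5:105115767-105139586) and Gbp6 (ENSMUSG00000104713, chr5:105270702-105293698), and the annotated spans of the first 3 of these overlap. Because the libraries read 3′ ends, the last 400 bases of each transcript were searched in windows of 90 bases for exact copies in other genes. Of the windows of Gbp6, 86.5% were also found in Gbp10 or Gm43302, so the Gbp6 values are uncertain. Of those of Gbp4, 10.4% were shared, among others with Gbp11, Gbp6 and Gbp9. The share was 0.6% for Gbp3 and 0.0% for the other 6 members.

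The promoters of the chromosome 3 genes, the only members in the set of promoter sequences used, were searched for an element through which interferons can reach genes. Each line gives the stretch just before the RefSeq start of a gene in GRCm38.p6, plus strand, with matches to the core of the interferon-stimulated response element in capitals: Gbp5 at chr3:142496759-142496933, Gbp7 at chr3:142530161-142530335, Gbp3 at chr3:142559869-142560043, Gbp2b at chr3:142594672-142594846 and Gbp2 at chr3:142620488-142620662.
Gbp5: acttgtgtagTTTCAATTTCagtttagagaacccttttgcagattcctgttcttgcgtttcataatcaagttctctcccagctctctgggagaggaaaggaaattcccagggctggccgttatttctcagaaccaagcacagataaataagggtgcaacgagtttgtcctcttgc
Gbp7: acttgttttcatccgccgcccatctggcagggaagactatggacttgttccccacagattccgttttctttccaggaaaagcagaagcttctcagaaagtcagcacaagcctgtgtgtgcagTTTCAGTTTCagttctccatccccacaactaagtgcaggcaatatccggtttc
Gbp3: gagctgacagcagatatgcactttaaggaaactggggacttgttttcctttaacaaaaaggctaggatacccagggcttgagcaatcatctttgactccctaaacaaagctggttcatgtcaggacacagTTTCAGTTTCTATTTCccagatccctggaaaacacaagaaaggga
Gbp2b: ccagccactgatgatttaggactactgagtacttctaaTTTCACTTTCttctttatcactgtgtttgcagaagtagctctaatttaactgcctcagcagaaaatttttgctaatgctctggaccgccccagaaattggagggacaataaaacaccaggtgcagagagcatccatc
Gbp2: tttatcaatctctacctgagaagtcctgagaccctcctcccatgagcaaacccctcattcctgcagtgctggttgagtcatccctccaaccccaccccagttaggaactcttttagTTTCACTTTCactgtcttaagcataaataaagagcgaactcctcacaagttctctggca
The core was searched as GAAANNGAAA on both strands, and on these strands it reads as its reverse complement. It lay 165 bases before the start of Gbp5, 137 before Gbp2b, 59 before Gbp2 and 53 before Gbp7, and Gbp3 had 2 overlapping matches 45 and 39 bases before its start. All 5 genes held it, in 5 of their 6 annotated promoters, against 3.44% of 32851 promoters of the same length (250 bases before to 50 after a start). These matches are descriptions of the sequence, and binding was not measured. Promoters of Gbp4, Gbp6, Gbp8 and Gbp9 were absent from that set, so whether they hold the element was not examined.

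Values are unique molecular identifiers (UMIs, each tagging 1 captured RNA molecule) per 1000000 UMIs, abbreviated CPM. They were summed over all barcodes of a library or over the barcodes of 1 marker-gated class, and the library was the replicate. The libraries held 1008 to 4538 barcodes and 3240877 to 43776342 UMIs. Ptprc, which encodes CD45, was at 421.6 to 2091 CPM in all 16 libraries, and 3.325 to 5.3% of UMIs were mitochondrial. The MC38 libraries shared barcodes. Of 2632 distinct barcodes among them, 1239 (47.07%) occurred in more than 1 library and 769 in all 8, against 187 of 18136 (1.031%) in the Panc02-SIY libraries. Each barcode was therefore kept only in the library of its tumor where it had most UMIs, which left 20768 of 28678 barcodes, 42.76 to 86.44% of UMIs in the MC38 libraries and at least 99.02% in the Panc02-SIY libraries. Results with all barcodes kept are given for MC38 CD45+ cells after radiation and for CD45+ cells between untreated tumors. They are also given for the order over classes and the relation to Ifng. Elsewhere they enter only the statements over all alternatives. A barcode entered a class when at least 3 of the class's 10 markers had a UMI and at least 2 more than in any other immune class, which placed 78.51% of the kept barcodes. A gene was called changed in edgeR's quasi-likelihood test at a Benjamini-Hochberg adjusted p below 0.1, taken over all genes tested, and a fold change above 1.3. Shares of all genes called are those of this main fit. Counts of members at an unadjusted p or under an alternative fit mostly stand without such a share and only describe the members.

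Macrophages were the largest gated class in MC38 tumors, with 662 barcodes in the untreated and 519 in the irradiated group (49.89% and 39.77% of barcodes), and CD8 T cells in Panc02-SIY tumors, with 3273 and 2254 (34.8% and 25.82%). Monocytes numbered 57 and 95 barcodes in the MC38 groups, and 170 and 478 in the Panc02-SIY groups. Neutrophils (638 and 1028 barcodes) and conventional dendritic cells, the cDCs (100 and 123), were numerous enough to test only in Panc02-SIY tumors, where B cells, CD4 T cells and regulatory T cells (Tregs) were also tested. In MC38 tumors macrophages, monocytes, NK cells and CD8 T cells could be tested, the last with 37 and 52 barcodes from 3 libraries per group. The gated macrophages carried their 10 macrophage markers at a summed 25180 to 31050 CPM in MC38 libraries and 13140 to 16900 in Panc02-SIY libraries. T-cell markers in the same macrophages summed to 16.3 to 32.7 CPM in MC38 and 70.5 to 205.1 in Panc02-SIY.

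Each member had its own order over the classes. These orders are in CPM, a share of a class's UMIs, and not in RNA per cell. In Panc02-SIY tumors, Gbp2 was highest in neutrophils, at 2398 ± 554 CPM (mean ± SD, n = 8 libraries of both treatments), then in monocytes at 972.1 ± 544 and macrophages at 381.2, and lowest in NK cells at 64.0. Gbp5 was likewise highest in neutrophils (780.3 CPM), with monocytes next at 274.8, and lowest in CD8 T cells at 45.7. Gbp2b followed a different pattern, with 305.0 ± 97.9 CPM in macrophages and 12.2 or less in each of the other 8 classes. Gbp8 was also led by macrophages (177.2 CPM), followed by Tregs at 65.8. Tregs led for Gbp4 (349.5 CPM) and Gbp6 (92.0 CPM), and neutrophils for Gbp3 (242.4), Gbp7 (690.1) and Gbp9 (93.3). Dendritic cells were lowest of the 9 classes for Gbp3 (36.3 CPM), Gbp4 (112.5), Gbp6 (0.782), Gbp7 (49.4), Gbp8 (18.2) and Gbp9 (21.5).

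In MC38 tumors, where 4 classes could be ordered, monocytes led for Gbp2 (1140 ± 382 CPM, n = 8), Gbp3 (234.4), Gbp5 (184.0), Gbp7 (199.5) and Gbp9 (99.8). Macrophages stood second for Gbp2 at 325.5 ± 149 CPM. CD8 T cells led for Gbp4 (145.0 CPM, n = 6), Gbp6 (87.2) and Gbp8 (44.6), and macrophages for Gbp2b at 5.46 CPM. Values over 1 member can be compared across classes, but not between members. The share of 3′ windows also found in other genes differs between members (86.5% for Gbp6), and the capture of each gene's 3′ end was not measured.

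**Figure D1:**
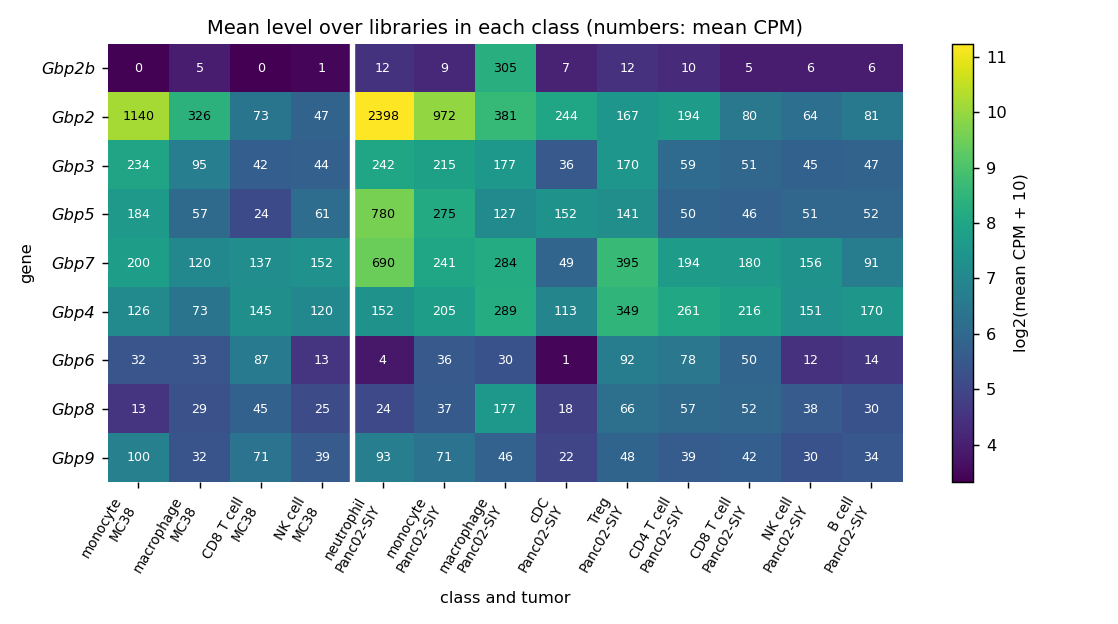
Heat map of the 9 Gbp genes against marker-gated classes, MC38 classes to the left and Panc02-SIY classes to the right. Colour is log2(mean CPM + 10) over libraries and the printed number is the mean CPM. Gbp2 and Gbp5 peak in Panc02-SIY neutrophils, and Gbp2b stands out in Panc02-SIY macrophages (305.0 CPM) but not in MC38 macrophages (5.46 CPM).

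The neighbours in these orders were set against the spread over libraries. Adjacent classes were compared within libraries by an exact sign-flip permutation test, two-sided, on log2(CPM + 10), with adjustment over 95 pairs. Of the pairs, 11 passed, each with the same direction in 8 of 8 libraries, an exact p of 0.0078, which is the smallest that 8 libraries allow, and an adjusted exact p = 0.0675. In MC38 these were monocytes over macrophages for Gbp2 and for Gbp3, by 1.82 and 1.22 on the log2 scale. In Panc02-SIY they were neutrophils over monocytes for Gbp2 (by 1.63) and Gbp5 (1.66), macrophages over neutrophils for Gbp2b (3.94), macrophages over Tregs for Gbp8 (1.37), macrophages over B cells for Gbp5 (1.21), Tregs over CD4 T cells for Gbp3 (1.39), neutrophils over Tregs (0.78) and Tregs over macrophages (0.48) for Gbp7, and CD8 T cells over NK cells for Gbp8 (0.36). Of the 23 MC38 pairs, 20 had only 6 or 7 libraries, where the smallest exact p possible (0.031 and 0.016) came to an adjusted 0.165 and 0.106, so a difference could not be called there. Among those 20, 4 had 1 direction in every library, for example Gbp5 in monocytes over NK cells (7 of 7 libraries, by 1.52 on the log2 scale) and Gbp3 in macrophages over NK cells (7 of 7, by 1.12). For the other pairs that missed the threshold, the order of neighbours is not settled. None of the 95 pairs passed after each barcode was thinned to 1000 UMIs, and 17 passed with all barcodes kept. The smallest exact p passes adjustment only when enough of the 95 pairs reach it together. The count of 0 after thinning therefore does not show that each order was lost.

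In Panc02-SIY tumors radiation was followed by higher Gbp2 and Gbp5 among CD45+ cells as a whole. Gbp2 was at 143.7, 284.8, 198.4 and 283.9 CPM in the untreated libraries and at 506.0, 405.5, 524.0 and 595.2 in the irradiated ones. The lowest irradiated library was above the highest untreated library. The means were 227.7 ± 69.1 and 507.7 ± 78.3 CPM (SD, n = 4), which edgeR put at 1.07 on the log2 scale (SE 0.28, adjusted p = 0.0206). Gbp5, the inflammasome-promoting member, was at 56.2, 108.4, 77.1 and 101.3 CPM untreated and 180.1, 145.2, 173.2 and 194.0 irradiated, again without overlap, with a log2 fold change of 0.93 (SE 0.25, adjusted p = 0.0242). These were 2 of 9 members called, against 14.7% of all 12447 genes tested, and 8 of 9 members had a positive log2 fold change. The members' median log2 fold change was 0.30, against -0.03 over all genes. Gbp7 (170.1 to 211.4 CPM untreated, 228.6 to 301.0 irradiated) and Gbp9 (38.2 to 43.3, then 48.9 to 62.3) did not overlap between groups either, but their adjusted p were 0.128 and 0.196. Log2 fold changes of the other 5 ran from -0.19 for Gbp6 to 0.43 for Gbp3, with overlapping groups. How many of all genes separate the groups in this way is not given. Overlap or its absence, here and below, therefore only describes the members' values.

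Among all CD45+ cells, a change in the number of cells of a type and a change in RNA per cell cannot be told apart. Neutrophils, the class with the highest Gbp2 and Gbp5 CPM, made up 6.784% of untreated and 11.77% of irradiated Panc02-SIY barcodes. Monocytes made up 1.808% and 5.475%, and macrophages 19.28% and 12.72%. CPM is a share of UMIs, and neutrophils held a median of 2556.5 and 2228.5 UMIs per barcode, against 9865 and 9972.5 in monocytes. The part of these classes in the Gbp2 and Gbp5 results was not tested. RLE size factors, library size alone, DESeq2 and a fit of the 2 groups alone each called 3 members, adding Gbp7. Of all genes, the main fit called 957 higher and 870 lower. RLE size factors called 1090 and 694, and library size alone 1243 and 528. For DESeq2 and the 2 groups alone these counts are not given. The share of all called genes that were higher was 52.38%, or 70.19% when scaled by library size alone.

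**Figure D2:**
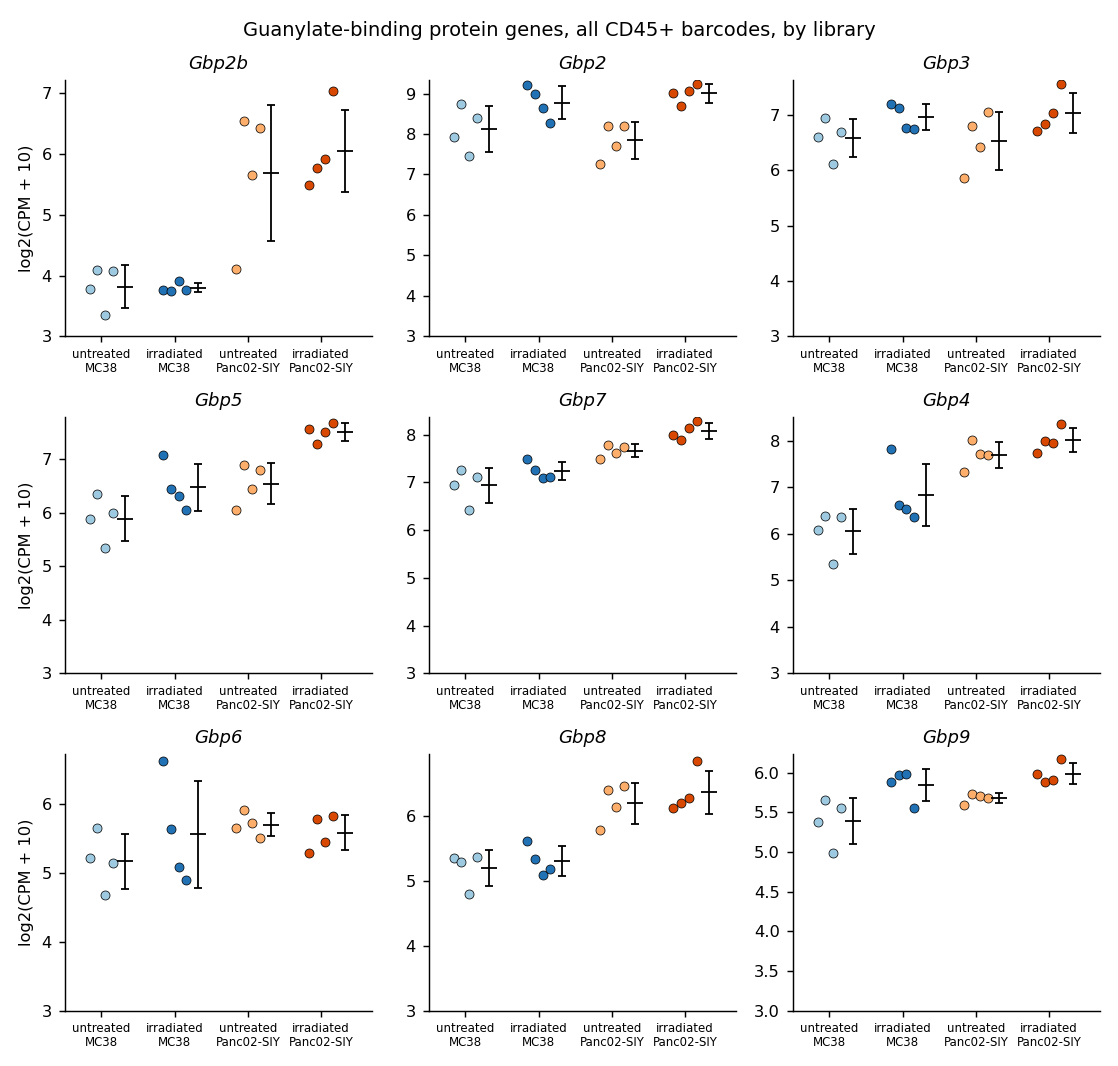
The 9 Gbp genes in all CD45+ barcodes, 1 panel per gene. Each point is 1 library, the y axis is log2(CPM + 10), and the mean ± SD of each group of 4 stands beside the points. Gbp2 and Gbp5 of irradiated Panc02-SIY tumors lie above all untreated Panc02-SIY libraries, and irradiated MC38 replicate 1 stands above the other irradiated MC38 libraries for Gbp4.

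Within the classes of Panc02-SIY tumors, the called changes were in monocytes. These cells, marked here by 10 monocyte genes, had 4 of 9 members higher after radiation (15.3% of 9028 genes tested were called), with a members' median log2 fold change of 0.89 against -0.03 over all genes. Gbp9 was at 5.31, 41.5, 66.2 and 49.6 CPM in untreated and 90.2, 103.1, 90.8 and 122.9 in irradiated monocytes, higher by 1.15 on the log2 scale (SE 0.32, edgeR adjusted p = 0.0210). Gbp8 was at 0, 24.9, 28.8 and 27.3 CPM untreated and 70.3, 34.4, 46.9 and 65.8 irradiated (1.19, SE 0.39, adjusted p = 0.0490). Neither gene overlapped between the groups. Gbp7 was at 53.1, 215.9, 195.1 and 214.5 CPM and then at 348.5, 241.7, 256.3 and 405.1 (0.81, SE 0.30, adjusted p = 0.0836). For Gbp2b, 3 of 2127133 UMIs in untreated and 78 of 4896074 in irradiated monocytes gave a ratio of 11.3, with an exact 95% counting interval of 3.73 to 56.0 (edgeR log2 fold change 3.29, SE 0.66, adjusted p = 0.00331). Its per-library levels were 0, 2.77, 1.70 and 1.01 CPM and then 16.8, 15.4, 17.7 and 14.8. Gbp2 also separated the groups (69.1 to 907.9 CPM untreated, 1062 to 1960 irradiated) but was not called (1.09, SE 0.56, adjusted p = 0.262). Untreated replicate 1, with 18 barcodes, was low over the family as a whole. Its summed family level was 233.9 CPM, against 1965, 1323 and 2022 in untreated replicates 2, 3 and 4. The part of this library in the members' median was not tested.

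The monocyte calls of Gbp7 and Gbp8 were each lost on omission of any 1 of several libraries. Gbp7 was not called without irradiated Panc02-SIY replicate 1 (0.74, adjusted p = 0.191), 3 (0.89, 0.107) or 4 (0.61, 0.221), without untreated Panc02-SIY replicate 1 (0.53, 0.185), 2 (0.88, 0.123) or 4 (0.94, 0.137), or without untreated MC38 replicate 1 (0.78, 0.104) or 4 (0.78, 0.107), which share the fit. Gbp8 was not called without irradiated Panc02-SIY replicate 1 (1.04, 0.145) or 4 (1.03, 0.127) or untreated replicate 1 (0.93, 0.102), 2 (1.18, 0.110) or 4 (1.32, 0.107). Gbp2b and Gbp9 stayed called without each library in turn. A stricter gate called Gbp2b alone, and at 1000 UMIs per barcode none of the 6 members tested was called. Gbp2b and Gbp8 were not among these 6, so thinning does not show that their calls were lost. Gbp7 (0.73, edgeR adjusted p = 0.377) and Gbp9 (0.78, 0.649) were tested and lost theirs. Macrophage markers in these monocytes summed to 760 to 1735 CPM untreated and 1446 to 1717 irradiated, with 0 of 10 markers at 0 in the untreated cells, cDC markers to 74.88 to 515.7 and 497.6 to 875.8, neutrophil markers to 87.03 to 473 and 247.6 to 333.6, and markers of nonimmune cells to 127.2 to 868.2 and 27.25 to 340.2. The libraries held 18 to 65 untreated and 58 to 183 irradiated monocytes, and the part of these markers in the calls was not tested. The share of all called genes that were higher in irradiated monocytes was 43.95%, or 33.68% with RLE size factors.

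**Figure D3:**
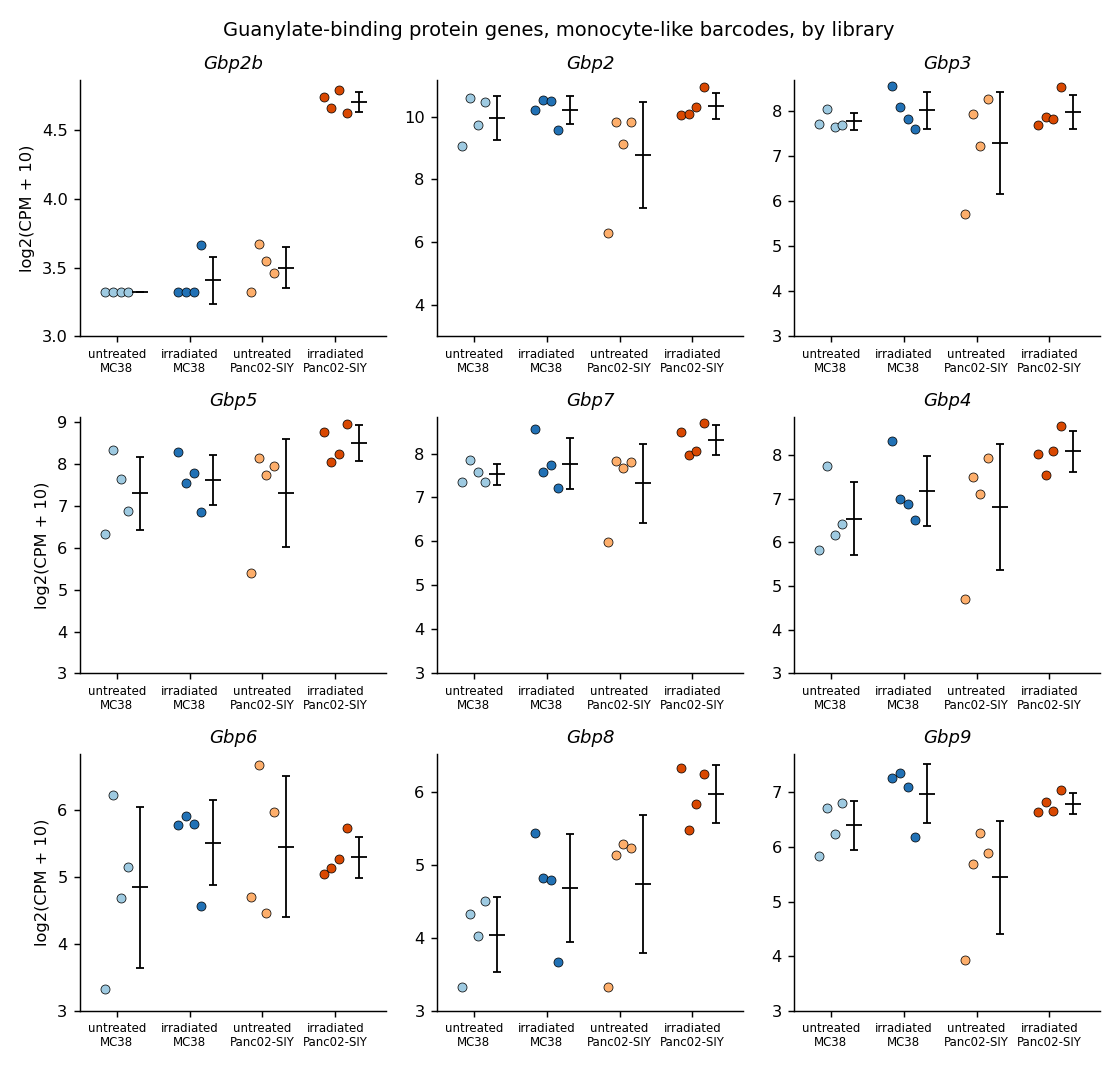
The 9 Gbp genes in marker-gated monocytes, plotted as points per library in log2(CPM + 10) with the mean ± SD of each group at the side. In Panc02-SIY tumors the irradiated libraries lie above the untreated ones for Gbp2, Gbp2b, Gbp7, Gbp8 and Gbp9.

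In dendritic cells of Panc02-SIY tumors, 7 of the 9 Gbp genes were tested after radiation, and none passed the threshold. Gbp2b and Gbp6 had too few UMIs to be tested. Gbp2b was at 0, 26.2, 0 and 11.8 CPM untreated and 9.78, 2.70, 2.53 and 3.56 irradiated. Among those tested, Gbp9 was at 5.64, 19.6, 20.5 and 19.3 CPM untreated and 58.7, 18.9, 20.3 and 9.49 irradiated. The irradiated library at 58.7 CPM held 8 cDC barcodes. Gbp2 was at 214.2, 62.2, 85.4 and 94.3 CPM in untreated cDCs and 293.3, 221.1, 671.5 and 308.5 in irradiated cDCs, without overlap. The log2 fold change was 1.73 (SE 0.40, edgeR adjusted p = 0.113). All 7 log2 fold changes were positive, with a median of 1.33 against -0.03 over all genes, 5 of them at an unadjusted p under 0.05 (Gbp2, Gbp3, Gbp4, Gbp5 and Gbp7), and 0 were called, as were only 0.573% of 7677 genes. DESeq2 called Gbp2, and without a filter on low counts 5 members were called. The shares of all genes called by these fits, or at that unadjusted p, are not given. These counts therefore only describe the members. Gbp6 had 0 of 1709110 UMIs in untreated cDCs, which allows up to 1.76 CPM.

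The remaining Panc02-SIY classes had no called member. In macrophages all 9 log2 fold changes were positive, from 0.18 for Gbp2b to 0.63 for Gbp4 (median 0.32 against 0.02 over all genes), with 1 at an unadjusted p under 0.05 (Gbp7, 0.38, edgeR adjusted p = 0.340), and 3.29% of all genes were called. In neutrophils Gbp2 was at 1338, 2891, 1907 and 2313 CPM untreated and 2592, 2396, 2711 and 3032 irradiated, with overlap, and 2 of 8 members had an unadjusted p under 0.05 (Gbp5, 0.50, and Gbp2b, -1.63, both adjusted p = 0.846). In CD8 T cells Gbp5 was at 29.3, 43.2, 36.5 and 40.8 CPM and then 50.1, 48.2, 54.6 and 62.6, without overlap, yet was not called (0.43, SE 0.17, adjusted p = 0.228). In CD4 T cells Gbp4 was at 148.9, 215.5, 233.0 and 188.1 CPM and then 314.7, 254.6, 320.4 and 410.4, also without overlap (0.70, SE 0.19, adjusted p = 0.198). The count at an unadjusted p under 0.05 was 1 in CD8 T cells, 2 in CD4 T cells, 1 in NK cells (Gbp5), 1 in B cells (Gbp9, with 16 UMIs untreated and 5 irradiated) and 0 in Tregs, and DESeq2 called 0 members in each of these classes, macrophages and neutrophils included. The shares of all genes called were 0.0260% in neutrophils, 2.77% in CD8 T cells, 0.287% in CD4 T cells, 0.359% in NK cells, 0.00% in B cells and 0.0560% in Tregs. Over all 9 classes the 4 called pairs of member and class stood against 2.92% of gene and class pairs.

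In MC38 tumors radiation was followed by higher Gbp4, Gbp5 and Gbp9 among CD45+ cells, with Gbp4 and Gbp5 near the threshold of adjusted p. Gbp9 was at 31.8, 40.3, 21.8 and 36.9 CPM in untreated and 49.1, 52.5, 53.5 and 36.9 in irradiated libraries. Only irradiated replicate 4 lay within the untreated range, and the log2 fold change was 0.65 (SE 0.16, edgeR adjusted p = 0.0200). Gbp4 was at 58.0, 73.6, 31.0 and 72.5 CPM untreated and 215.1, 87.7, 83.0 and 72.6 irradiated (1.00, SE 0.33, adjusted p = 0.0695). Irradiated replicate 1 was far above the other 7 libraries. That library kept 147 barcodes and 42.76% of its UMIs, at a median of 2991 UMIs per kept barcode, each the lowest of all 16 libraries. The part of this in its values was not tested. Gbp5 was at 49.1, 71.9, 30.5 and 53.5 CPM and then 125.6, 77.3, 70.1 and 56.2 (0.74, SE 0.27, adjusted p = 0.0994). The 3 called members compare with 11.7% of all genes, and 8 of 9 log2 fold changes were positive, with a median of 0.65 against 0.04 over all genes. Gbp2 went from 285.5 ± 111 to 440.7 ± 123 CPM and was not called (0.71, SE 0.29, adjusted p = 0.133), and all 9 members overlapped between the groups.

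The calls of Gbp4 and Gbp5 in MC38 CD45+ cells depended on the libraries and barcodes used, and Gbp9 lost its call after thinning. At 1000 UMIs per barcode Gbp9 stood at 0.22 (edgeR adjusted p = 0.788), and 0 members were called. With all barcodes kept, Gbp9 was the 1 member called (0.46, edgeR adjusted p = 0.0781), with Gbp4 at 0.64 (0.166) and Gbp5 at 0.48 (0.260). Gbp4 was not called without irradiated MC38 replicate 1 (0.59, adjusted p = 0.193), untreated MC38 replicate 1 (0.98, 0.143) or replicate 3 (0.79, 0.16). Gbp5 lost its call on omission of 13 of the 16 libraries, with log2 fold changes of 0.53 to 0.81, and kept it only without untreated MC38 replicate 2, irradiated MC38 replicate 4 or untreated Panc02-SIY replicate 1. DESeq2 called Gbp2, Gbp4, Gbp5 and Gbp9, and the share of all genes that it called is not given. Of all genes called, 61.92% were higher, or 32.76% when scaled by library size alone, where Gbp5 was no longer called.

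In MC38 macrophages all 9 members had a positive log2 fold change and 0 were called, against 9.06% of 12017 genes. The members' median was 0.53 and the median over all genes 0.02. Gbp2 was at 208.2, 343.8, 127.8 and 315.4 CPM untreated and 616.8, 433.0, 298.2 and 261.3 irradiated (0.80, SE 0.31, edgeR adjusted p = 0.158). Gbp4 was at 47.0, 57.4, 22.2 and 65.0 CPM and then 192.0, 80.1, 69.5 and 53.1 (1.07, SE 0.46, adjusted p = 0.211), and Gbp5 had a log2 fold change of 0.88 (SE 0.35, adjusted p = 0.169). As among all CD45+ cells, irradiated replicate 1 was the highest library for Gbp2 and Gbp4. The count at an unadjusted p under 0.05 was 5, DESeq2 called Gbp2 and Gbp5, and a fit of the MC38 groups alone called Gbp9. Monocyte markers in these macrophages summed to 1385 to 1936 CPM untreated and 2164 to 2509 irradiated, and the part of this in the Gbp values was not tested. The share of called genes that were higher was 51.7%, or 24.77% by library size alone.

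The other MC38 classes had no called member either. In monocytes all 9 log2 fold changes were positive, from 0.09 for Gbp5 upward, with 0 at an unadjusted p under 0.05, 0 by DESeq2 and 0.00% of all genes called by edgeR. In NK cells Gbp5 had the 1 unadjusted p under 0.05 (1.49, SE 0.61, edgeR adjusted p = 0.579), DESeq2 called 0 and 0.165% of genes were called. In CD8 T cells, 2 of 285581 UMIs in untreated and 18 of 450407 in irradiated cells were Gbp5, a ratio of 5.71 with an exact 95% counting interval of 1.37 to 50.7. That gene was not called, 2 members (Gbp5 and Gbp8) had an unadjusted p under 0.05, DESeq2 called 0, and 0.359% of genes were called. Over these 4 classes 2.70% of gene and class pairs were called and 0 of the members'.

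Whether the response to radiation differed between the tumors was tested directly as an interaction. No member passed in any of the 5 populations tested in both tumors, and no alternative made one pass. Among CD45+ cells the largest differences of log2 fold changes, MC38 minus Panc02-SIY, were 0.84 for Gbp6 (SE 0.52), 0.74 for Gbp4 (SE 0.45, edgeR adjusted p = 0.557) and -0.36 for Gbp2 (SE 0.40). In macrophages Gbp5 stood at 0.47 (SE 0.49) and Gbp4 at 0.44 (SE 0.62). The members at an unadjusted p under 0.05 were 2, both in CD8 T cells (Gbp5, 2.18, and Gbp8, -1.25), DESeq2 called 0, and the shares of all genes called were 0.345% in CD45+ cells, 0.00% in macrophages, 0.122% in monocytes, 0.0194% in NK cells and 0.00% in CD8 T cells. So the calls of Gbp2 in one tumor and of Gbp4 and Gbp9 in the other are not shown to be particular to either.

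**Figure D4:**
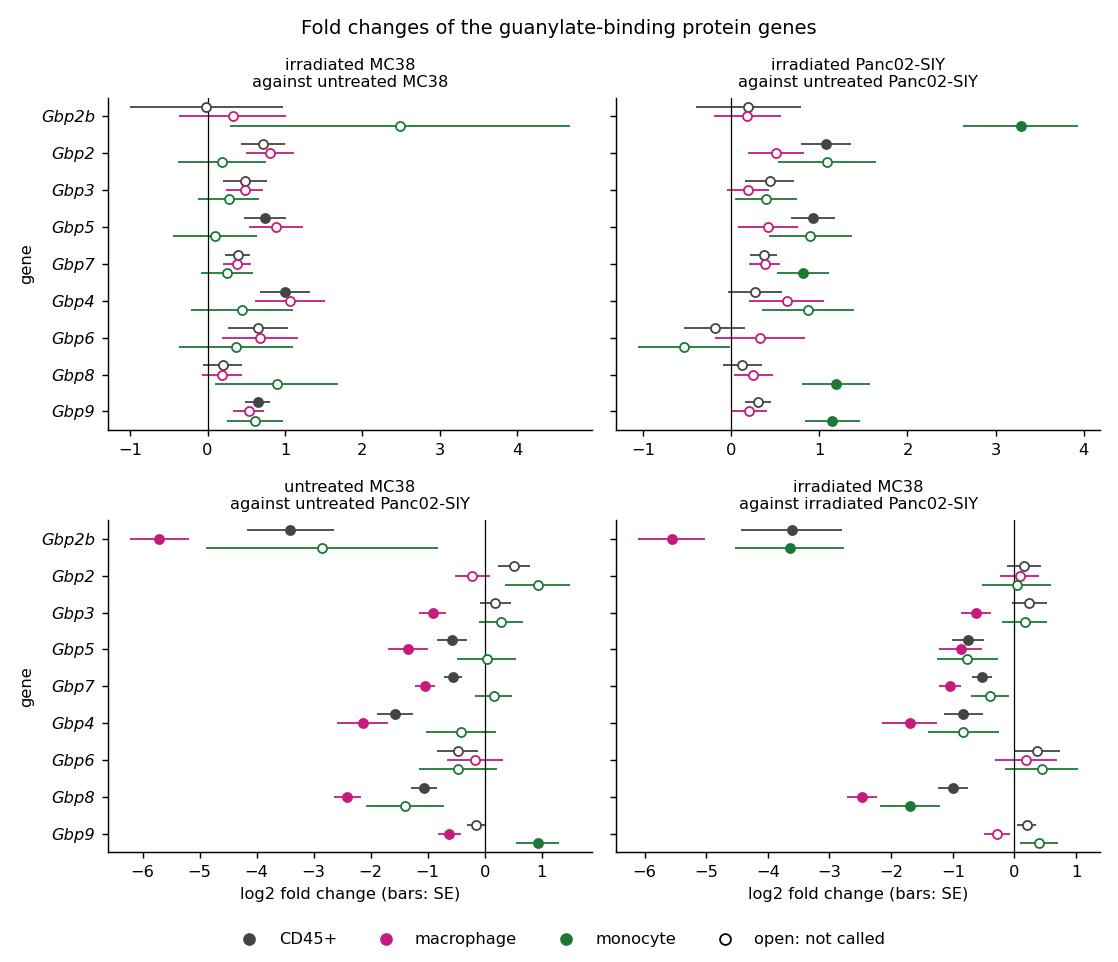
Log2 fold changes ± SE of the 9 Gbp genes in 4 comparisons (each tumor irradiated against untreated, and MC38 against Panc02-SIY untreated and irradiated) for CD45+ cells, macrophages and monocytes. Filled points were called and open points were not. The MC38 against Panc02-SIY differences of Gbp2b in macrophages, -5.70 and -5.56, exceed every radiation difference in size.

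Among CD45+ cells and macrophages more members were called between the tumors than between treatments, above all in macrophages, and the same was true of all genes. In monocytes 4 members were called after radiation in Panc02-SIY, against 1 between untreated and 2 between irradiated tumors. Of all macrophage genes, 41.9% were called between untreated tumors, against 9.06% for radiation in MC38 and 3.29% in Panc02-SIY. In untreated tumors, Gbp2b was at 2.80, 8.68, 0.237 and 8.31 CPM in MC38 macrophages and at 130.2, 458.7, 308.1 and 225.6 in Panc02-SIY macrophages. Every Panc02-SIY library was above every MC38 library, and the mean levels were 5.01 ± 4.17 and 280.6 ± 139 CPM (SD, n = 4). The log2 fold change, MC38 minus Panc02-SIY, was -5.70 (SE 0.52, edgeR adjusted p = 2.7e-06), a level 52.1-fold lower in MC38, and -6.38 without untreated MC38 replicate 4. Gbp8 was at 34.2, 30.9, 17.7 and 31.0 CPM in MC38 and 71.0, 227.9, 186.0 and 144.7 in Panc02-SIY macrophages (-2.41, SE 0.24, adjusted p = 8.02e-07), again with no overlap. Gbp4 was at 47.0, 57.4, 22.2 and 65.0 against 86.8, 368.7, 220.9 and 209.5 CPM (-2.14, SE 0.45, adjusted p = 0.00238). Gbp5 (-1.34), Gbp7 (-1.04), Gbp3 (-0.91) and Gbp9 (-0.62) were also called lower, Gbp3 and Gbp9 with overlapping groups and adjusted p of 0.00693 and 0.0212. Gbp9 was not called without untreated Panc02-SIY replicate 2 (-0.43, adjusted p = 0.135), and its difference was 0.02 after thinning. Gbp2, at 248.8 ± 99.6 and 312.5 ± 71.5 CPM, and Gbp6 were not called (-0.21 and -0.17, adjusted p = 0.639 and 0.839).

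The 7 called members stood against 41.9% of all genes called in this comparison, so that a call was common among all genes. All 7 were lower in MC38, where 49.62% of all called genes were higher (34.24% when scaled by library size alone), and the members' median was -1.04 against 0.00 over all genes. Scaling by library size alone moved the median of all genes to -0.16 in untreated and -0.28 in irradiated macrophages, and among CD45+ cells to -0.24 and -0.37, and every call named in these comparisons of macrophages and CD45+ cells kept its direction.

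In irradiated tumors the macrophage difference had the same form, and 6 members were called lower in MC38 (44.5% of all genes called). Gbp2b was at 5.82, 4.81, 8.30 and 4.69 CPM in MC38 and 316.2, 294.5, 323.9 and 383.0 in Panc02-SIY macrophages (-5.56, SE 0.54, edgeR adjusted p = 4.98e-06), a 47.2-fold lower level. Gbp8 was at 34.9, 34.2, 22.9 and 28.9 against 192.4, 170.6, 202.4 and 222.4 CPM (-2.47, SE 0.25, adjusted p = 8.91e-07). The groups were far apart for both genes. Gbp4 (-1.70), Gbp7 (-1.04), Gbp5 (-0.87) and Gbp3 (-0.62) were the other members called. Gbp3 was not called without irradiated MC38 replicate 3 (-0.54, adjusted p = 0.130) or 4 (-0.51, 0.148) or irradiated Panc02-SIY replicate 4 (-0.48, 0.173), and Gbp5 not without irradiated MC38 replicate 2 (-0.84, 0.121), 3 (-0.73, 0.152) or 4 (-0.66, 0.173) or irradiated Panc02-SIY replicate 4 (-0.74, 0.167). The members' median was -0.87 against -0.01 over all genes, and 49.85% of called genes were higher, or 27.52% by library size alone.

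**Figure D5:**
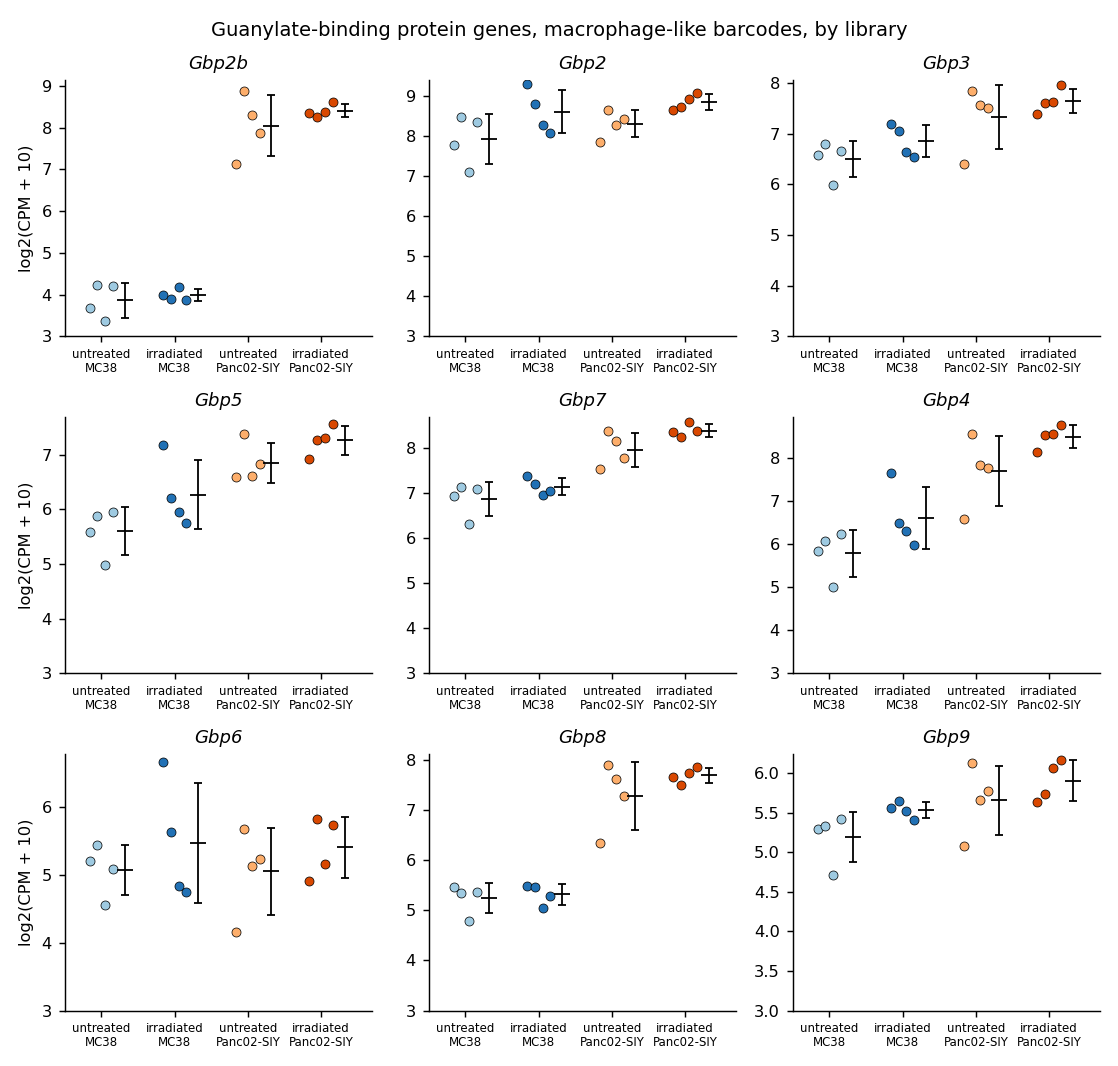
The 9 Gbp genes in marker-gated macrophages, plotted as points per library in log2(CPM + 10) with the mean ± SD of each group at the side. Gbp2b and Gbp8 of both Panc02-SIY groups lie above all MC38 libraries, while Gbp2 of the tumors overlaps.

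The share of single macrophages with a Gbp2b UMI differed in the same direction, against the order of depth. The MC38 macrophages had median depths of 23511 (untreated) and 19440 UMIs (irradiated), and 5.287% and 4.817% of them held a Gbp2b UMI. The shallower Panc02-SIY macrophages, at 2455 and 3934 UMIs, held one in 50.14% and 54.55%. Thinned to 1000 UMIs per barcode, the shares were 0.5% (3 of 600, exact Clopper-Pearson 95% interval 0.103 to 1.45%) and 0.212% (1 of 472, 0.00536 to 1.18%) in MC38, and 22.67% (323 of 1425, 20.52 to 24.93%) and 27.37% (234 of 855, 24.4 to 30.49%) in Panc02-SIY. Barcodes below that depth were left out (62 and 47 from MC38, 388 and 256 from Panc02-SIY). In CD8 T cells of Panc02-SIY tumors, a class with little Gbp2b, the thinned shares were 0.341% and 0.359%, in monocytes 0.592% and 0.851% and in neutrophils 0.971% and 0.807%. Within MC38, monocytes (median 15069 and 13498 UMIs) held a Gbp2b UMI in 0 of 57 and 1 of 95 barcodes, and thinned in 0 of 56 and 0 of 93, which by the same exact interval allows up to 6.38% and 3.89%. Summed over all UMIs, MC38 macrophages had 84 Gbp2b UMIs untreated and 60 irradiated, and were above NK cells in 6 of 7 libraries (exact p = 0.031, adjusted 0.165). At 3 and 1 barcodes with a UMI, whether the thinned MC38 macrophages held Gbp2b RNA of their own or free RNA of the tumor was not tested. These intervals cover counting error only, and cells of 1 library are not replicates.

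Among all CD45+ cells, 5 members were called lower in MC38 in untreated tumors, Gbp2b (-3.41, SE 0.76, edgeR adjusted p = 0.00136), Gbp4 (-1.57, SE 0.32, 0.000619), Gbp8 (-1.07, SE 0.23, 0.000956), Gbp7 (-0.55, SE 0.16, 0.00573) and Gbp5 (-0.57, SE 0.26, 0.0681), where 61.1% of all genes were called. Gbp4 was at 31.0 to 73.6 CPM in MC38 and 150.5 to 248.5 in Panc02-SIY libraries. Gbp5 overlapped between the tumors, and its call was lost on omission of untreated MC38 replicate 1 (-0.54, adjusted p = 0.125) or 3 (-0.39, 0.193) or untreated Panc02-SIY replicate 2 (-0.43, 0.189) or 4 (-0.46, 0.164). With all barcodes kept, Gbp6 was also called lower (-0.67, 0.0319) and Gbp2 higher in MC38 (0.60, 0.0340). In irradiated tumors the members called were Gbp2b (-3.62), Gbp8 (-0.99), Gbp4 (-0.83), Gbp5 (-0.75) and Gbp7 (-0.53), with 58.5% of all genes called, and Gbp4 was lost without irradiated MC38 replicate 4 (-0.67, adjusted p = 0.107). Called genes were higher in 47.6% and 51.1% of cases, or 35.75% and 27.41% by library size alone. The class makeup of the tumors differed, as given above, and its part in these sums was not tested.

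Outside macrophages few members separated the tumors. In untreated monocytes Gbp9 was called higher in MC38, at 77.3 ± 25.5 against 40.6 ± 25.7 CPM (0.93, SE 0.37, edgeR adjusted p = 0.0826), with overlapping groups where 26.2% of all genes were called. That call was lost on omission of 13 of the 16 libraries (log2 fold changes 0.64 to 0.96) and kept only without untreated MC38 replicate 1, irradiated MC38 replicate 4 or untreated Panc02-SIY replicate 3. In irradiated monocytes Gbp2b had 1 of 1078324 UMIs in MC38 and 78 of 4896074 in Panc02-SIY, a ratio of 17.2 with an exact 95% counting interval of 2.99 to 687. Its log2 fold change of -3.65 (adjusted p = 0.00818) became -6.19 without irradiated MC38 replicate 4, which held the single UMI. Gbp8 was also called lower there (-1.69, SE 0.49, adjusted p = 0.0261), but not without that library (-1.27, 0.139), and 16.1% of all genes were called. In untreated CD8 T cells, Gbp5 was called lower in MC38, with 2 of 285581 against 1396 of 35123672 UMIs, a ratio of 5.68 with an interval of 1.57 to 46.9 (-2.65, SE 0.77, adjusted p = 0.0652), a call lost without untreated MC38 replicate 2 (-3.11, 0.181), 3 (-2.24, 0.209) or 4 (-2.87, 0.224), and 4.31% of genes were called. In NK cells 0 members were called in either comparison, with 1 (Gbp8, untreated) and 0 at an unadjusted p under 0.05, 0 by DESeq2, and 5.14% and 11.1% of genes called. In irradiated CD8 T cells 0 were called, 3 had an unadjusted p under 0.05, DESeq2 called Gbp9, and 7.76% of genes were called. Gbp2b had 0 UMIs in MC38 CD8 T cells, which allows up to 10.5 CPM untreated and 6.66 irradiated, so a difference from Panc02-SIY was not detectable at this depth. The median of all genes in monocytes was -0.15 and -0.14, and -0.32 and -0.35 by library size alone, with 45.58% and 50.21% of called genes higher, or 32.2% and 26.14%. Over the 4 classes, 9 pairs of member and class were called in untreated and 8 in irradiated tumors, against 19.8% and 20.7% of gene and class pairs.

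The genes around the family in the interferon pathway were counted in 6 lists. The lists were chosen with earlier results of these data known, so the counts are descriptions and not independent tests. Among CD45+ cells of MC38 tumors, 9 of 18 genes of upstream signaling (ligands, receptors and factors) were higher after radiation, and 4 of 9 immunity-related GTPases tested. The counts were 1 of 11 interferon-γ induced genes, 10 of 12 genes induced by type I interferon, 3 of 8 inflammasome genes and 0 of 14 genes of membrane targeting and autophagy. None was lower, against 11.7% of all genes called. Ifng itself was at 23.9 ± 20.1 CPM untreated and 80.3 ± 70.4 irradiated (1.79, SE 0.60, edgeR adjusted p = 0.0805). Irf1 was also called (0.58, adjusted p = 0.0947). The antiviral effectors Mx1 (1.38) and Rsad2 (1.23) led the type I list, Igtp (0.73) and Irgm2 (0.72) the immunity-related GTPases, and Cd274, which encodes the checkpoint ligand PD-L1, rose by 1.15. In MC38 macrophages, where no Gbp gene was called, 11 of the 12 type I genes and 2 of 9 immunity-related GTPases, Ifi47 (0.61) and Irgm1 (0.58), were. So were 6 of 18 upstream genes, 3 of 11 interferon-γ induced genes, 2 of 8 inflammasome genes and 0 of 14 membrane genes, none of them lower. Of all genes there, 9.06% were called.

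Among CD45+ cells of Panc02-SIY tumors, 6 of 18 upstream genes were higher after radiation, and 1 of 9 immunity-related GTPases (Irgm1, 0.60, edgeR adjusted p = 0.015). The counts were 3 of 11 interferon-γ induced genes, 11 of 12 type I genes, 4 of 8 inflammasome genes and 0 of 14 genes of membrane targeting. None was lower, against 14.7% of all genes called. The type I list was led by Mx1 (1.47) and Rsad2 (1.42), and the inflammasome list by Il1b (1.10) and Nlrp3 (1.02), partner of Gbp5 in inflammasome assembly. Ifng had a log2 fold change of -0.04 (SE 0.53, adjusted p = 0.977), and Irf1 was not called (0.39, 0.233). In the macrophages of these tumors the counts were 2, 0, 0, 3, 1 and 0 in the same order of lists, against 3.29% of all genes called.

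Between the tumors, calls in macrophages were common among all genes. Of all genes, 20.8% were called higher and 21.1% lower in MC38 in untreated tumors, and 22.2% and 22.3% in irradiated tumors. Beside these shares, only the type I list had nearly all its genes called in 1 direction. In untreated macrophages, 11 of 12 type I genes were higher in MC38 and none lower, with Mx1 at 2.33 and Irf7 at 1.90 on the log2 scale, while 3 of 9 immunity-related GTPases were lower (Irgm2, -2.15, SE 0.23, edgeR adjusted p = 5.33e-07, F830016B08Rik, -1.11, and Igtp, -0.97) and none higher. Irf1 was lower in MC38 macrophages too (-0.94, adjusted p = 0.0447). Of the 11 interferon-γ induced genes 4 were lower, Serpina3g (-1.99), Cd274 (-1.11), Ciita (-0.59) and Psmb9 (-0.46), and 2 higher, Cxcl10 (2.52) and Psmb8 (0.54). Upstream, 8 of 18 were higher and 4 lower, with 3 and 1 of 8 inflammasome genes and 2 and 1 of 14 membrane genes. In irradiated macrophages 11 type I genes were higher and none lower. Of the immunity-related GTPases there, 2 were lower, Irgm2 (-1.77) and F830016B08Rik (-0.73), and 2 higher, Tgtp1 (1.38) and Ifi47 (0.42). Of the interferon-γ induced genes 4 were higher, Nos2 (3.13), Cxcl10 (2.35), Psmb8 (0.94) and H2-Ab1 (0.64), and 2 lower, Serpina3g (-1.71) and Ciita (-0.57), and Irf1 was not called (-0.41, adjusted p = 0.369). Among all CD45+ cells 6 interferon-γ induced genes were higher in MC38 and 1 lower in both the untreated and the irradiated comparison, beside 12 of 12 type I genes higher. Of all genes there, 29.1% were called higher and 32.0% lower untreated, and 29.9% and 28.6% irradiated. The immunity-related GTPases were 1 higher and 2 lower untreated and 4 higher and 1 lower irradiated there, with medians of 0.27 and 0.49. Among untreated CD45+ cells Ifng was at 23.9 CPM in MC38 and 277 ± 72.1 in Panc02-SIY libraries (-3.38, SE 0.61, adjusted p = 0.000234), and CD8 T cells, among its main sources, made up 2.788% of MC38 and 34.8% of Panc02-SIY barcodes.

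Since T and NK cells release interferon-γ, the level of each member in macrophages was set against Ifng in the gated T and NK cells of the same library, within each tumor over its 8 libraries. Ifng in those cells was at 424.6 ± 369.7 CPM in untreated MC38, 825.6 ± 428 in irradiated MC38, 424.8 ± 80.5 in untreated Panc02-SIY and 519.6 ± 157 in irradiated Panc02-SIY libraries. All 18 values of Pearson's r were positive and 0 passed after adjustment over the 18. In MC38 they ran from 0.28 for Gbp8 to 0.80 for Gbp2 (permutation p = 0.0186, adjusted p = 0.229), and in Panc02-SIY from 0.11 to 0.47. Spearman's rho of Gbp2 in MC38 was 0.76 (permutation p = 0.0368, adjusted p = 0.238). Without the 2 libraries farthest from the median of Ifng, 17 were positive and 0 passed, Gbp2b in MC38 standing at -0.14. With all barcodes kept, 17 were positive and 0 passed. The libraries of a tumor span both treatments, and each pair of values comes from 1 library and its depth.

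Among 8237 genes compared, those whose level ran most like the summed family over 26 group and class sums were Atp6v1e1, a subunit of the vacuolar proton pump (Pearson's r 0.92 of log2(CPM + 10)), Irgm1, an immunity-related GTPase (0.91), Ets2, a transcription factor (0.91), Ston2 (0.90) and AW011738 (0.88). Of the members, which are part of that sum, Gbp3 (0.93), Gbp2 (0.91), Gbp5 (0.85), Gbp7 (0.82) and Gbp9 (0.72) followed it, and Gbp4 (0.37), Gbp2b (0.33), Gbp8 (0.13) and Gbp6 (0.04) did less. These are descriptions over classes that share libraries.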

How the data were processed

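Live CD45+ cells from subcutaneous MC38 or Panc02-SIY tumors were profiled with the 10x 3′ v3.0 chemistry in 16 libraries. The authors made the deposited matrices of UMI counts per gene and barcode, unnormalized, 1 per library, and the submitters' processing notes name bcl2fastq 2.20.0, Cell Ranger 3.1.0 and mm10. The version of the gene annotation is not given in the sources used here. A pooled matrix of the same libraries was not used. Groups and replicate numbers came from the sample titles.

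Each barcode was kept in the library of its tumor with most UMIs. Classes were gated by 10 markers each (at least 3 with a UMI, and at least 2 more than any other immune class). No doublet caller was run, and only that margin guards against doublets. UMI counts were summed per library and class, and classes needed 5 barcodes in at least 3 libraries per group. Sums were fitted with edgeR 4.0.16 (R 4.3.3; TMM, robust quasi-likelihood, all groups in 1 model, filterByExpr with minimum count 10 for CD45+ sums and 3 for classes, total 15), with Benjamini-Hochberg adjustment over all genes. The threshold, adjusted p below 0.1 and fold above 1.3, follows the study's. The comparisons share groups, so their results are not independent of each other. Levels are CPM, and log2 levels used a pseudocount of 10 CPM. The order over classes and the relation to Ifng were tested by exact sign flips and permutations (scipy 1.17.1).

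Depth ran from 3240877 to 43776342 UMIs per library. Scripts were tested on simulated data. The alternatives were DESeq2 1.42.0, RLE size factors, library size alone (added after the data were seen), other count filters and thresholds, all barcodes kept, a strict gate (4 markers, 3 more), a filter on cells (500 genes, 10% mitochondrial), 1000 UMIs per barcode, a fit of the groups compared alone, a replicate block and each library left out.

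All 9 members are named. Of the pathway lists, the rule for naming took genes called in CD45+ cells or macrophages, at most 6 per list by size of change. It also took Ifng and Irf1 whether called or not, and the 5 non-members most like the summed family. Not every such gene is given in each comparison. A further gene that the rule names is not reported here. The members, lists and markers were chosen with earlier results of these data known. Reads that match several genes could bear on Gbp6 and Gbp4, and annotation was matched by gene ID for all 9 members.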

Additional observations from a re-analysis of the deposited data

Results flagged for a closer look

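In 9 of 165 groups of 4 libraries examined, 1 library stood far from the other 3 by Dixon's criterion at 95%, which chance alone meets in about 1 of 20 groups. All values are CPM, with the range of the other 3 libraries of the group.

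Among all CD45+ cells, Gbp4 in irradiated MC38 replicate 1 was 215.1 against 72.58 to 87.69, and Gbp8 in untreated MC38 replicate 3 was 17.76 against 29.22 to 31.29. In monocytes, Gbp4 in the same irradiated MC38 replicate 1 was 311.6 against 81.2 to 118.4. Gbp3 in untreated MC38 monocytes was 254.2 in replicate 2 against 190.6 to 199.8, and in irradiated Panc02-SIY monocytes 362.6 in replicate 4 against 197.2 to 222.7. Gbp7 in untreated Panc02-SIY monocytes was 53.15 in replicate 1 against 195.1 to 215.9.

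In other Panc02-SIY classes, Gbp8 in irradiated neutrophils was 12.88 in replicate 3 against 26.14 to 28.74, Gbp3 in untreated NK cells was 68.35 in replicate 4 against 30.77 to 35.43, and Gbp5 in untreated CD4 T cells was 106.7 in replicate 4 against 24.15 to 35.84.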

How the results depend on the processing

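Of 36 called values of members, the alternatives other than leaving out a library gave 444 values: 397 kept direction and call, 46 kept direction and lost the call, and 1 reversed, Gbp9 in macrophages of untreated tumors, which moved from -0.62 to 0.019 at 1000 UMIs per barcode. Leaving out each library gave 576 values, of which 517 kept the call, 59 lost it and 0 reversed. Of 235 alternative values of family levels, 228 stayed within 1 SD.

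For radiation in MC38 CD45+ cells (3 members called), adjusted p below 0.05, all barcodes kept, no filter on low counts and a fit of the 2 groups alone each left 1, and 1000 UMIs per barcode left 0. Leaving out a library gave 1 to 5. For the MC38 classes (0 called), DESeq2 called 2, the 2 groups alone 1, and leaving out a library 0 to 1. For the Panc02-SIY classes (4 called), a minimum count of 10 left 2, a strict gate 1 and 1000 UMIs 0, no filter on low counts gave 13, and leaving out a library 2 to 5. At 1000 UMIs Gbp2b and Gbp8 in monocytes were not tested. A log2 fold change above 0.58 left 3 of the 5 CD45+ members that differed between untreated tumors. Of the class pairs in order, 17 passed with all barcodes kept and 0 after thinning, against 11, and the 0 does not show that each order was lost. The causes were not tested, except that thinning removes most UMIs. The shares of all genes called under these alternatives are not given, so the counts only describe the members.

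The numbers were not taken to pair the libraries, since the labels tie them to no animal or day and not every pair deviated together. The correlations of deviations were 0.17, -0.03, 0.09 and 0.06 for the MC38 pairs. For the Panc02-SIY pairs they were 0.60, -0.18, 0.26 and 0.82, where 3 of 4 pairs did deviate together, and 3 of 8 and 6 of 8 libraries correlated best with their own number. With the replicate block, 5 members were called in MC38 CD45+ cells (adding Gbp2 and Gbp7), Gbp7 was lost in Panc02-SIY monocytes, and Gbp5 in CD8 T cells and Gbp2 in cDCs of Panc02-SIY were gained. The block changed no other call. The shares of all genes called with the block are not given.

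The MC38 classes other than macrophages were small, with 57 and 95 monocytes, 49 and 79 NK cells and 37 and 52 CD8 T cells in the untreated and irradiated groups. The part of their size in the absence of calls was not tested.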

Other observations

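Classes too small to test in MC38 tumors held few barcodes, and their summed family level is given with exact Poisson 95% intervals, which cover counting error only. In MC38 neutrophils (7 barcodes in each group) it was 4161 CPM (3393 to 5051) untreated and 1356 CPM (849.8 to 2053) irradiated, beside pooled levels of 4159 and 4962 CPM in Panc02-SIY neutrophils. In MC38 cDCs it was 276.4 CPM (194.6 to 380.9) in 8 untreated barcodes and 456.1 CPM (94.05 to 1333) in 2 irradiated barcodes, beside 310.7 and 866.4 CPM in Panc02-SIY cDCs.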
